A study of Mus musculus with 4 samples.

Results

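The genes described here are 9 transcription regulators whose expression is graded over the surface of the developing cerebral cortex, Nr2f1, Nr2f2, Emx1, Emx2, Sp8, Lhx2, Bhlhe22, Lmo3 and Lmo4. They were taken by gene name from the deposited tables, and all 9 were among the 20385 genes listed in both tables. RNA came from cerebral cortex dissected from C57BL/6 mouse embryos at E16 (embryonic day 16), from wild type (WT) animals and from animals labelled Cd93 KO, in which the gene of a transmembrane lectin receptor is knocked out. The labels give 2 libraries per genotype, WT 1 and WT 4 against KO 5 and KO 6, although the series' design text speaks of triplicates, and say neither how many embryos went into a library nor which part of Cd93 was deleted. The p-values below therefore measure the spread between these libraries, which may in part be technical. KO 6 and WT 1 were deposited in 1 table (table A), and KO 5 and WT 4 in the other (table B).

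Area patterning turns signals from the edges of the early cortex into graded levels of transcription factors, and the balance of these factors sets where motor, sensory and visual areas form. Emx2, a homeodomain factor, is high toward the caudal and medial cortex and favours visual identity, while Sp8, a zinc-finger factor, is high toward the rostral and medial cortex. Nr2f1 (COUP-TFI), an orphan nuclear receptor, is high caudally and laterally and restrains motor identity. Its relative Nr2f2 (COUP-TFII) is known for the caudal ganglionic eminence, its migrating interneurons and venous endothelium. Emx1 marks the pallial lineage, Lhx2, a LIM-homeodomain factor, secures cortical fate against hem and olfactory fates, and Bhlhe22, a basic helix-loop-helix repressor, acts in postmitotic neurons. Lmo3 and Lmo4 encode LIM-only proteins, which bind the cofactor Ldb1 and carry no DNA-binding domain of their own.

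The sequence before the start site is shown for Lhx2, Nr2f2 and Sp8, because their levels ran opposite ways between the libraries, as described further on. These genes were picked with their levels known. Each stretch holds the 250 bases before the RefSeq start on GRCm38.p6, written 5′ to 3′ on the gene's own strand, and capitals mark the GC box GGGCGG, a site of Sp factors. The Lhx2 stretch is at chr2:38339031-38339280 (plus strand), that of Nr2f2 at chr7:70366747-70366996 (minus strand) and that of Sp8 at chr12:118846079-118846328 (plus strand).
Lhx2: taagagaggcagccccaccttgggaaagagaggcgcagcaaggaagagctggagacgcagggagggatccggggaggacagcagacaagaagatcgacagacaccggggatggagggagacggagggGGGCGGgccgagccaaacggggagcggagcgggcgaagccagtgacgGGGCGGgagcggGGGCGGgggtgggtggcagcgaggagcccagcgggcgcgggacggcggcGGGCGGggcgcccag
Nr2f2: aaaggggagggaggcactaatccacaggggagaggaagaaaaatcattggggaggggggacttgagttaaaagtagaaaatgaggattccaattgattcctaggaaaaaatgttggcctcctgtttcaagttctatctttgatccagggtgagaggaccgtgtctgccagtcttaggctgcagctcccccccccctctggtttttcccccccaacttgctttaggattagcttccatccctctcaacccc
Sp8: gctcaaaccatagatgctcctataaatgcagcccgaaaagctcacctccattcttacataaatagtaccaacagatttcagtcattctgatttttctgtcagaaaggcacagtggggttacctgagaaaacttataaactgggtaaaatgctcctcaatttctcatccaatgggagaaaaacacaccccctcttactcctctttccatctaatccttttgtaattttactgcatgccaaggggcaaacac

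The Lhx2 stretch was rich in G and C (72.8%), with 25 CpG pairs and 4 GC boxes. The Nr2f2 and Sp8 stretches held 1 CpG pair each and no GC box, with 40.8% G and C for Sp8. The medians over all 32851 windows were 52.4% G and C and 6 CpG pairs. RefSeq windows matched 8 of the 9 genes. The start nearest to the deposited gene start was used for each. For Nr2f1, Emx1 and Emx2 that start lay inside the deposited gene, and the window overlapped annotated exons of the same gene. These windows therefore do not lie before the deposited genes. The Nr2f2 window overlapped an exon of B130024G19Rik, a gene on the opposite strand. GGGCGG, on either strand, was in the windows of 5 of the 8 (Nr2f1, Emx1, Emx2, Lhx2 and Lmo4), against 32.7% of all windows. Lmo4 and Nr2f1, highest in WT 1 like Nr2f2 and Sp8, had 3 and 1 GC boxes and 44 and 22 CpG pairs in their windows. Genes highest in WT 1 thus had windows with and without a GC box. The letters AGGTCA, a core of nuclear receptor sites, TAATTA, bound by many homeodomains, and CATATG, an E-box, were in the windows of 0 of the 8, against 14.0%, 4.84% and 3.46% of all windows. With a single motif found in these windows, no match overlapped another motif, and a match of letters is a description of the window only.

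The libraries held 16318317 to 17586157 counts, and 16371 genes passed the filter on low counts, all 9 area factors among them. Levels are given as CPM, the count scaled to a common library size, with the TMM factors of edgeR (0.994 to 1.01 over the libraries), and each ± is an SD of the 2 libraries that share a genotype. Counting error on a single value of an area factor ran from 1.28% for Lhx2 to 8.54% for Sp8 (the inverse square root of the count). Cd93 itself, with 680 (WT 1), 409 (WT 4), 111 (KO 5) and 99 (KO 6) counts, was lower in both KO libraries, as labelled. Its log2 fold change of -2.32 (SE 0.25) had an edgeR adjusted p of 0.211, and the alternatives put that p between 3.91e-12 (DESeq2) and 0.9998 (limma-voom). The cortical neuron markers were present in every library, with all 14 tested and a summed level of 4250 to 5068 CPM.

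None of the 9 area factors passed the test between genotypes. With p values of edgeR's quasi-likelihood fit adjusted by Benjamini-Hochberg over all 16371 genes, 0 of 9 were called, where 0.0122% of all genes were called (2 genes, both lower in KO). At an unadjusted p under 0.05 there were also 0 of 9, against 1.94% of all genes, and DESeq2 and limma-voom called 0 of 9 as well. Without WT 1, WT 4, KO 5 or KO 6 the count over all genes was 24, 214, 5 and 7 in turn, and that of the 9 was 0 each time. The unadjusted count of the 9 moved more. Without WT 4 it was 5 of 9 (Emx1, Emx2, Lhx2, Nr2f2 and Sp8), against 6.39% of all genes, with the table as a block 2 of 9 (Emx1 and Emx2), against 3.99%, and without KO 6 it was 1 of 9 (Emx1), against 1.9%. The median log2 fold change of the 9, KO over WT, was -0.04, from 4 genes above 0 and 5 below, and that of all genes was -0.003. The median size of the fitted difference, sign left aside, was 0.19 for the 9 and 0.09 for all genes. Fewer cells of a type and less RNA per cell cannot be told apart in bulk tissue, and this holds for every level given here.

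Lhx2 and Bhlhe22 were the most abundant of the 9 per length, and Sp8 and Nr2f2 the least. On the scale of CPM per kilobase of annotated exon, averaged over the 4 libraries, Lhx2 was at 63.4 and Bhlhe22 at 60.5, followed by Lmo4 at 37.8. Emx1 stood at 28.9, Nr2f1 at 24.4 and Lmo3 at 24.1. Emx2 came to 10.6, Nr2f2 to 3.87 and Sp8 to 2.23. In this order Lhx2 and Bhlhe22 overlapped over the libraries (46.0 to 78.9 and 57.4 to 65.4 CPM per kilobase), as did Lmo4 with Emx1 (33.8 to 44.2 and 20.8 to 41.2) and Emx1, Nr2f1 and Lmo3 with one another. The other neighbouring levels did not overlap, although Nr2f2 at its lowest (3.12) and Sp8 at its highest (3.11) nearly met.

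Emx2 was the only one of the 9 genes whose KO levels both exceeded the WT levels. Emx2 (ENSMUSG00000043969, GRCm38 chromosome 19, 59458372 to 59465357 on the plus strand) had 423 (WT 1), 544 (WT 4), 650 (KO 5) and 562 (KO 6) counts, or 23.8, 32.0, 37.1 and 34.6 CPM. WT 1 was the lowest library, and WT 4 lay nearer to the KO libraries than to WT 1. The WT mean was 27.9 ± 5.77 CPM and the KO mean 35.9 ± 1.74 CPM (SD, n = 2 each). The log2 fold change was 0.36 (SE 0.17, 95% interval -0.03 to 0.76), with an unadjusted p of 0.0658 that ranked 454 among 16371 genes and an adjusted p of 0.9999 by edgeR. The log2 ratio of KO to WT was 0.54 (table A) and 0.21 (table B). Both KO libraries were above both WT libraries in 11.5% of all genes, a share close to 1 gene of 9. Leaving out WT 1 gave 0.17 and leaving out WT 4 gave 0.60.

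Emx1 and Lhx2 differed more between the libraries of a genotype than between genotypes. Emx1 (ENSMUSG00000033726, chromosome 6, 85187438 to 85204462 on the plus strand) had 809 (WT 1), 1109 (WT 4), 1577 (KO 5) and 836 (KO 6) counts, or 45.5, 65.1, 90.0 and 51.5 CPM. Both libraries of table B, WT 4 and KO 5, were above both of table A, and the genotypes overlapped. WT averaged 55.3 ± 13.9 CPM and KO 70.8 ± 27.2 CPM (SD, n = 2 each), for a fitted log2 difference of 0.36 (SE 0.28, 95% interval -0.32 to 1.03). KO to WT was at 0.18 (table A) and 0.47 (table B), while KO 6 against KO 5 was at -0.80 and WT 1 against WT 4 at -0.52. Without KO 5 the log2 fold change was -0.10, and without KO 6 it was 0.71.

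Lhx2 (ENSMUSG00000000247, chromosome 2, 38339281 to 38369733 on the plus strand) had 3589 (WT 1), 5414 (WT 4), 6074 (KO 5) and 4006 (KO 6) counts. Its levels of 202, 318, 347 and 247 CPM followed the order of Emx1, with both table B libraries above both table A libraries. The WT mean was 260.0 ± 82.1 CPM and the KO mean 297 ± 70.6 CPM (SD, n = 2 each). The log2 fold change was 0.19 (SE 0.25, 95% interval -0.40 to 0.78), against -0.66 between WT 1 and WT 4 and -0.49 between KO 6 and KO 5. Lhx2 was at 0.29 and 0.12 within tables A and B, but at -0.10 without WT 1 and at -0.07 without KO 5. The antisense genes annotated within Lhx2, Gm13584 and Gm27197, share no exon base with it, and their counts were low, 23 to 49 and 44 to 93 over the libraries.

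**Figure D1:**
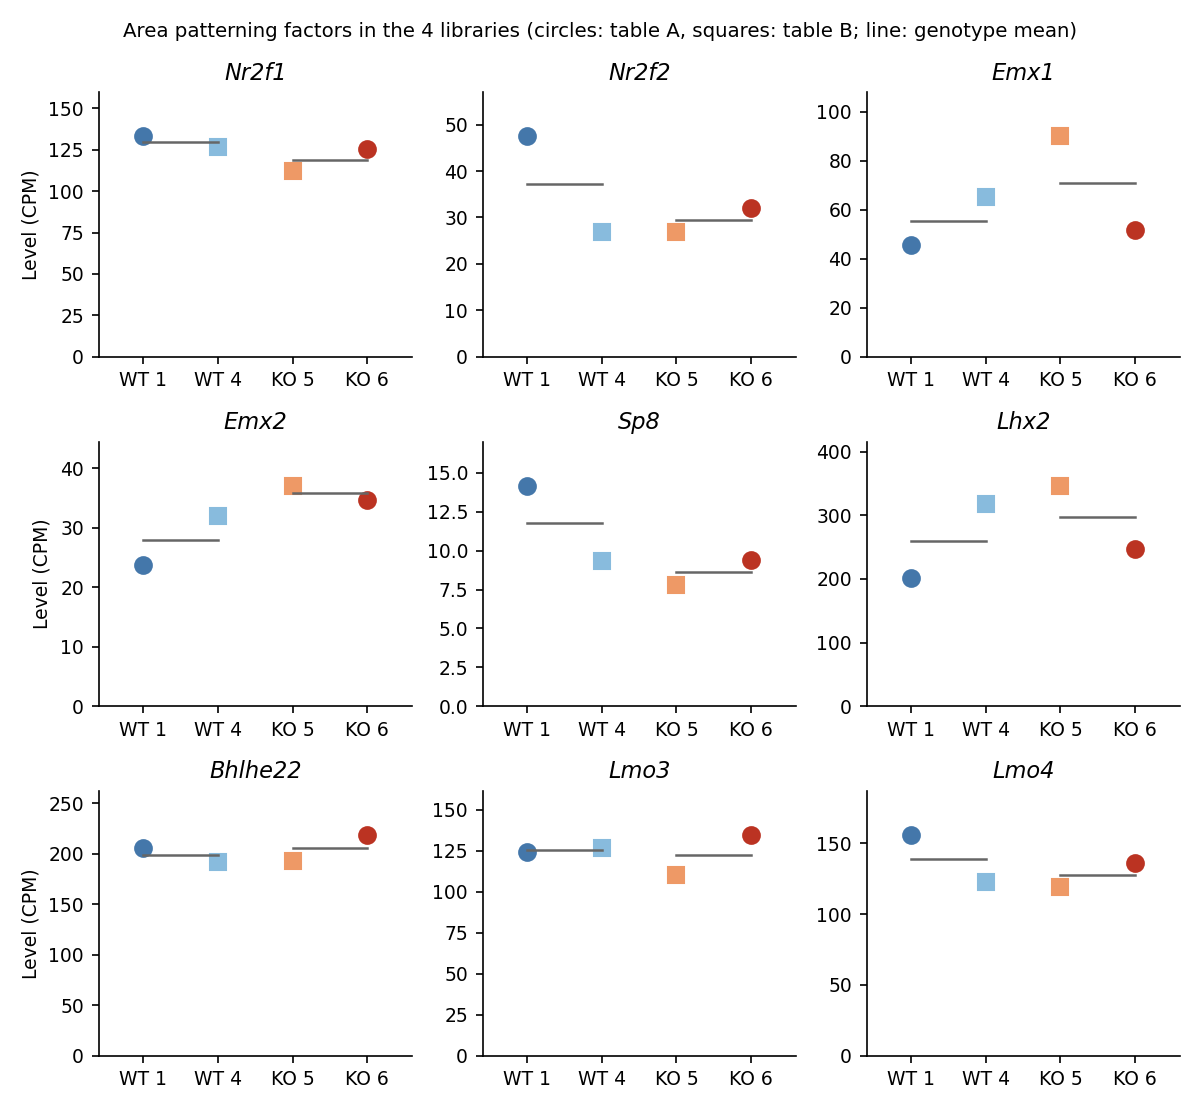
Level in CPM (vertical axes, from 0) of each of the 9 genes in the 4 libraries, with circles for table A, squares for table B and a grey line at the mean of the 2 libraries of a genotype. Emx1 and Lhx2 are higher in both squares than in both circles, Nr2f2 and Sp8 are highest in WT 1, and the KO values of Emx2 (34.6 and 37.1 CPM) exceed its WT values (23.8 and 32.0 CPM).

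The nuclear receptors Nr2f1 and Nr2f2 were both lower in the KO by their means, Nr2f1 by little and Nr2f2 mainly against WT 1. Nr2f1 (ENSMUSG00000069171, chromosome 13, 78188973 to 78199757 on the minus strand) had 2369 (WT 1), 2155 (WT 4), 1961 (KO 5) and 2039 (KO 6) counts, or 133, 127, 112 and 126 CPM. It was the only one of the 9 whose KO libraries both lay below the WT libraries (11.9% of all genes), and the gap between WT 4 at 126.6 CPM and KO 6 at 125.7 CPM was smaller than the counting error of 2.05% to 2.26%. WT averaged 129.9 ± 4.73 CPM and KO 119 ± 9.71 CPM (SD, n = 2 each), for a fitted log2 difference of -0.13 (SE 0.11, 95% interval -0.39 to 0.13, edgeR adjusted p 0.9999). The interval allows a KO to WT ratio from 0.762 to 1.10. The log2 ratio of KO to WT was -0.08 (table A) and -0.18 (table B), and leaving out 1 library gave -0.21 to -0.05.

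Nr2f2 (ENSMUSG00000030551, chromosome 7, 70351944 to 70366735, minus strand) stood apart in WT 1. It had 845 counts there, against 459 (WT 4), 471 (KO 5) and 519 (KO 6), or 47.5, 27.0, 26.9 and 32.0 CPM. WT 4 was as low as KO 5, so the genotypes overlapped. The WT mean was 37.3 ± 14.6 CPM and the KO mean 29.4 ± 3.61 CPM (SD, n = 2 each), for a fitted log2 difference of -0.34 (SE 0.26, 95% interval -0.97 to 0.29). Within table A the log2 ratio was -0.57 and within table B -0.004. Leaving out WT 1 gave 0.13 and leaving out WT 4 gave -0.69 with an edgeR adjusted p of 0.141, the lowest of any of the 9 genes (0.141 to 0.99998 for Nr2f2 over the alternatives). Reads of Nr2f1 outnumbered those of Nr2f2 2.80 (WT 1), 4.69 (WT 4), 4.16 (KO 5) and 3.93 (KO 6) times, so the ratio of the pair was lowest in WT 1 and the genotypes overlapped.

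Sp8 had the fewest counts of the 9, and like Nr2f2 it was highest in WT 1. Sp8 (ENSMUSG00000048562, chromosome 12, 118846329 to 118852576 on the plus strand) had 252 (WT 1), 159 (WT 4), 137 (KO 5) and 152 (KO 6) counts, or 14.2, 9.34, 7.82 and 9.37 CPM. WT 1 was high, and WT 4 and KO 6 were alike within counting error. WT averaged 11.8 ± 3.42 CPM and KO 8.60 ± 1.09 CPM (SD, n = 2 each). The log2 fold change was -0.45 (SE 0.26, 95% interval -1.08 to 0.17), with -0.59 and -0.25 within tables A and B, -0.12 without WT 1 and -0.72 without WT 4. In the counter-gradient pair of Sp8 and Emx2, Sp8 reads per Emx2 read came to 0.596 (WT 1), 0.292 (WT 4), 0.211 (KO 5) and 0.270 (KO 6). Both KO ratios were below both WT ratios. WT 4 lay nearer to the KO libraries than to WT 1, and with 2 against 2 libraries no exact permutation p can be below 0.333. RNA of dissected cortex holds no position, so no level or ratio given here describes a gradient over the cortex.

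**Figure D2:**
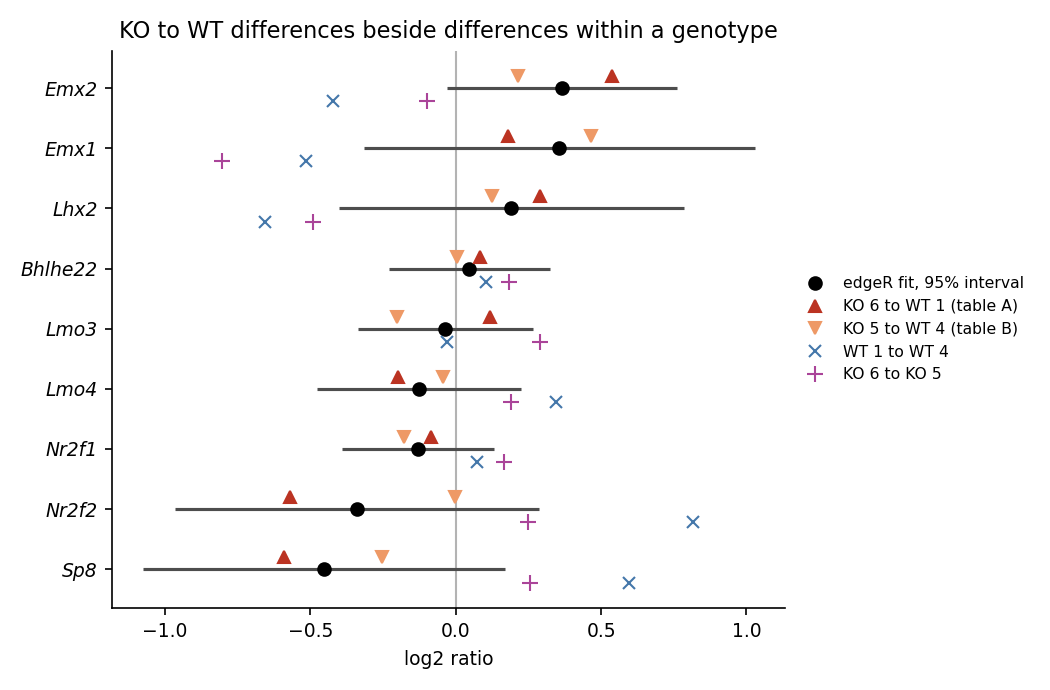
Log2 ratios (horizontal axis) for the 9 genes, with black points and bars for the fitted KO over WT difference and its 95% interval, triangles for KO to WT within each deposited table, and crosses for the differences between libraries of the same genotype. Every interval includes 0, and in each gene at least 1 within-genotype difference is larger in size than the fitted difference.

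Bhlhe22, Lmo3 and Lmo4 differed little between genotypes, and their intervals exclude changes of the size of 1.5-fold. Bhlhe22 (ENSMUSG00000025128, chromosome 3, 18054174 to 18057517, plus strand) was at 206, 192, 193 and 219 CPM in WT 1, WT 4, KO 5 and KO 6. The 2 libraries of table A were above the 2 of table B, and the genotypes overlapped. The WT mean was 199 ± 10.02 CPM and the KO mean 206 ± 18.3 CPM (SD, n = 2 each), for a fitted log2 difference of 0.05 (SE 0.12) with a KO to WT ratio between 0.853 and 1.25 at 95%. Lmo3 (ENSMUSG00000030226, chromosome 6, 138362918 to 138581968, minus strand) was at 124, 127, 110.0 and 135 CPM in the same order of libraries. The KO libraries lay on either side of the WT libraries, at a log2 fold change of -0.04 (SE 0.13, ratio between 0.791 and 1.203).

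Lmo4 (ENSMUSG00000028266, chromosome 3, 144188530 to 144205220, minus strand) was at 156, 123, 119 and 136 CPM in WT 1, WT 4, KO 5 and KO 6. WT 1 was again the highest library, and both table A libraries were above both table B libraries. WT averaged 139 ± 23.4 CPM and KO 128 ± 11.9 CPM (SD, n = 2 each), for a fitted log2 difference of -0.13 (SE 0.15) with a ratio between 0.718 and 1.17 at 95%. Lmo4 reads per Lmo3 read were 1.26 (WT 1), 0.969 (WT 4), 1.08 (KO 5) and 1.01 (KO 6), with the genotypes overlapping. The direction turned without KO 6 for Bhlhe22 (-0.040), without KO 5 for Lmo3 (0.10) and without WT 1 for Lmo4 (0.055).

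For most of the 9 genes, as for most genes tested, single libraries of a genotype lay further apart than the fitted genotype difference. The difference between WT 1 and WT 4 was larger in size than the fitted genotype difference in 7 of the 9, all but Nr2f1 and Lmo3, against 69.3% of all genes, and the larger of the 2 within-genotype differences exceeded it in 9 of 9, against 85.4%. A difference of single libraries varies more than one of 2-library means. The median size of the log2 difference between WT 1 and WT 4 was 0.42 for the 9 genes and 0.18 for all genes, and between KO 6 and KO 5 it was 0.25 and 0.19. The genotypes did not overlap in 2 of the 9 (Emx2 and Nr2f1), against 23.4% of all genes. The tables did not overlap in 6 of the 9, against 45.8% of all genes: Emx1 and Lhx2 were higher in table B, and Nr2f2, Sp8, Bhlhe22 and Lmo4 were higher in table A. KO to WT had the same sign in both tables in 8 of the 9, all but Lmo3, against 45.1% of all genes. That share of the 9 includes Nr2f2 and Bhlhe22, whose log2 ratios of -0.004 and 0.01 in table B were near 0.

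WT 1 and KO 5 held the extremes of most of the genes. WT 1 had the lowest level of Emx1, Emx2 and Lhx2 and the highest of Nr2f1, Nr2f2, Sp8 and Lmo4. KO 5 had the highest level of Emx1, Emx2 and Lhx2 and the lowest of Nr2f1, Nr2f2, Sp8, Lmo3 and Lmo4. Between these libraries, a pair picked with the values known, the log2 ratio of KO 5 to WT 1 was 0.98 for Emx1, 0.64 for Emx2 and 0.78 for Lhx2, and -0.82 for Nr2f2 and -0.85 for Sp8. Between the other two, KO 6 against WT 4, it was -0.34 for Emx1, 0.12 for Emx2 and -0.37 for Lhx2, and 0.25 for Nr2f2 and 0.004 for Sp8.

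Annotated genes on the opposite strand share exon bases with Emx2, Nr2f1 and Nr2f2. Whether the counting used strand is not given in the sources used here, so reads of the partners cannot be told apart where they overlap. Emx2os, which shares 264 exon bases with Emx2, had 109 (WT 1), 116 (WT 4), 63 (KO 5) and 93 (KO 6) counts. Its KO levels were the lower ones, the reverse of Emx2 and as in 11.9% of all genes, and its fitted log2 difference was -0.47 (SE 0.30). The gap between WT 1 at 6.13 CPM and KO 6 at 5.73 CPM was smaller than the counting error of 9.28% to 12.6%. Emx2 reads per Emx2os read, a ratio added after values were seen, came to 3.88 (WT 1), 4.69 (WT 4), 10.3 (KO 5) and 6.04 (KO 6).

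A830082K12Rik, which shares 123 exon bases with Nr2f1, had 505 (WT 1), 471 (WT 4), 385 (KO 5) and 431 (KO 6) counts, the same order of libraries within each genotype as Nr2f1. Its log2 fold change was -0.21 (SE 0.14). B130024G19Rik, which shares 643 exon bases with Nr2f2, had 52 counts in WT 1 and 18, 12 and 19 in WT 4, KO 5 and KO 6, high in WT 1 like Nr2f2. A830011K09Rik, antisense to Lmo3 without a shared exon base, had 137 (WT 1), 141 (WT 4), 79 (KO 5) and 107 (KO 6) counts, at -0.53 (SE 0.27). None of these partners passed, with edgeR adjusted p values of 0.9999.

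**Figure D3:**
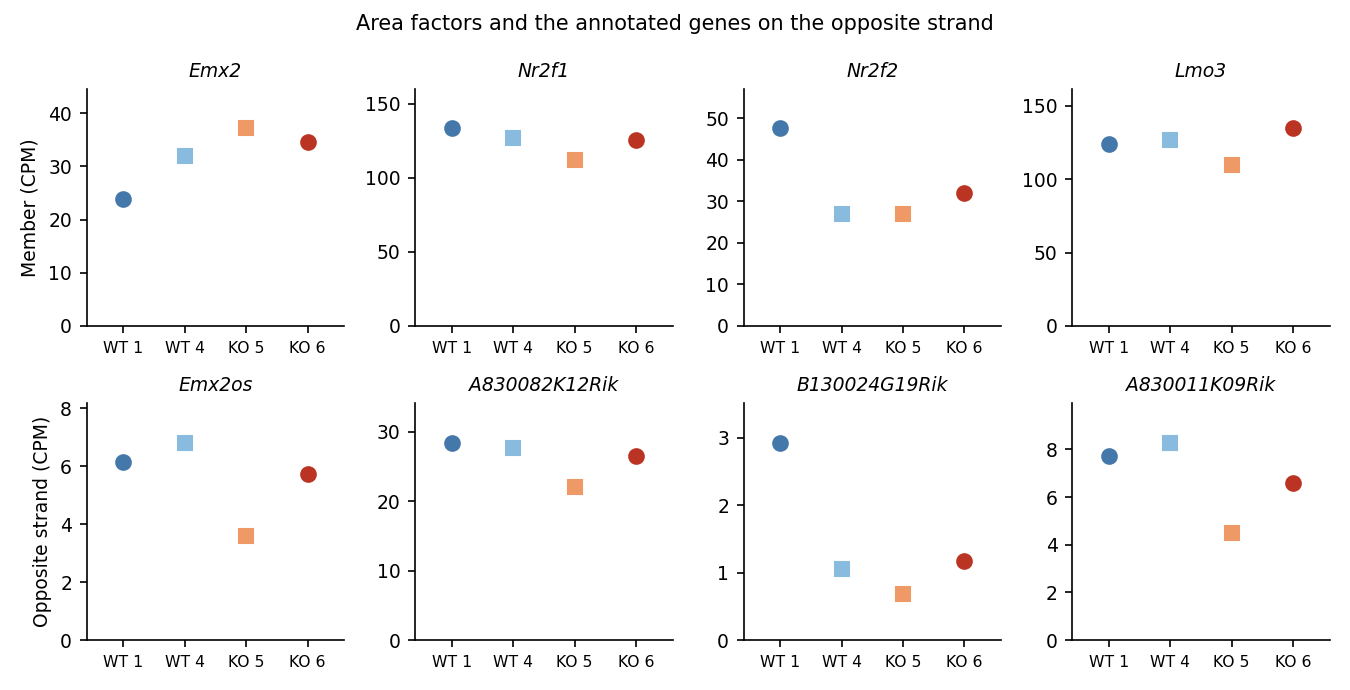
Level in CPM (vertical axes, from 0) of 4 of the genes (top) and of the annotated gene on the opposite strand (bottom) in the 4 libraries, with circles for table A and squares for table B. Emx2 is higher and Emx2os lower in both KO libraries, although Emx2os in KO 6 and WT 1 differs by less than the counting error. A830082K12Rik and B130024G19Rik follow the order of Nr2f1 and, in WT 1, of Nr2f2.

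Other genes of area patterning, in 3 lists, did not pass either, by edgeR, DESeq2 or limma-voom. Over all genes, 1.94% had an unadjusted p under 0.05 by edgeR. At an unadjusted p under 0.05 by edgeR there were 1 of 30, 2 of 26 and 0 of 24 in these lists, and without WT 4 edgeR called 2, 4 and 0 after adjustment. Of 30 other transcription factors and cofactors of cortical patterning, 0 were called in either direction, 18 lay above 0 and 12 below, at a median of 0.05 on the log2 scale. The smallest p values were those of Sp9, a relative of Sp8, with a mean of 24.9 ± 14.8 CPM over WT against 11.1 ± 1.77 CPM over KO, and of the LIM-only gene Lmo2, at 14.8 ± 3.21 and 12.3 ± 0.122 CPM (SD, n = 2 each). Sp9 had 628 counts in WT 1 against 172 to 246 in the other libraries. Its log2 fold change of -1.17 was -1.67 without WT 4, where edgeR called it with an adjusted p of 0.000613 (0.000613 to 0.99998 over the alternatives), and -0.38 without WT 1.

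Of 26 tested signals of the patterning centres and their response genes, 0 were called, 17 were higher and 9 lower, with a median of 0.09. Fgf17, a signal of the rostral patterning centre, averaged 2.76 ± 0.0785 CPM over WT against 1.23 ± 0.604 CPM over KO (SD, n = 2 each), from 50 (WT 1), 46 (WT 4), 29 (KO 5) and 13 (KO 6) counts. Etv4, a response gene of FGF signalling, was at 15.7 ± 2.76 and 21.4 ± 2.44 CPM. Their unadjusted p values were 0.0306 and 0.0470 by edgeR, and neither passed after adjustment. Of 24 surface and other area-graded genes 0 were called, 14 were higher and 10 lower, with a median of 0.04, led by the ephrin receptor genes Epha3 at -0.23 (SE 0.12) and Epha6 at 0.92 (SE 0.56, from 8 to 33 counts).

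Marker lists of other cells that the dissected tissue could hold were set beside the area factors, with 0 genes called in any of them by edgeR, DESeq2 or limma-voom. The ventral forebrain list (21 of 22 tested, Dlx5 and Zfp503 with the smallest p) summed to 1222 (WT 1), 765 (WT 4), 624 (KO 5) and 689 (KO 6) CPM. The meninges list (15 of 16 tested, led by Col1a1 and Lum) summed to 1117, 265, 208 and 262 CPM, and the endothelial and mural list (19 of 20 tested, led by Anpep and Cdh5) to 692, 457, 457 and 472 CPM. The microglia list (12 tested, led by Tmem119 and Mrc1) came to 132, 68.6, 64.7 and 66.6 CPM. The fitted difference was below 0 in 19 of 21 ventral forebrain genes (median -1.21), 15 of 15 meninges genes (median -2.57), 19 of 19 endothelial and mural genes (median -0.34) and 12 of 12 microglia genes (median -0.52). Over all genes tested it was below 0 in 8349 of 16371. Within table B, which lacks WT 1, the medians of KO to WT were -0.84, -0.52, 0.01 and -0.18 in the same order. At an unadjusted p under 0.05 by edgeR there were 9, 10, 0 and 3 genes in these lists, against 1.94% of all genes. Over all 16371 genes, 29 passed with the table as a block, and the counts without a library are given above. Without WT 4, 11, 14, 4 and 2 passed after adjustment, without WT 1 it was 0, 1, 0 and 0, and with the table as a block 8, 7, 0 and 0. In all 4 lists WT 1 was the highest library, as for Nr2f1, Nr2f2, Sp8 and Lmo4, and no listed marker was at 0 in any library. The list of caudal eminence interneurons, cells known for Nr2f2 and Sp8, did not set WT 1 apart in its sum. The sum came to 1088, 1027, 963 and 1140 CPM in WT 1, WT 4, KO 5 and KO 6. Of 13 tested genes, led by Calb2 and Sp9, 6 lay above 0 and 7 below. By edgeR 3 had an unadjusted p under 0.05, and 2 were called with the table as a block. Both table B libraries were below both table A libraries in 7 of the 13, as for Nr2f2 and Sp8, against 23.0% of all genes. They were above in 1, against 22.8%. Reln, a gene also of Cajal-Retzius cells, was the largest part of that sum, and without it the sums were 676, 644, 564 and 686 CPM. Sp9, a gene of this list too, was highest in WT 1, as given above. The part of these cells in the levels of Nr2f2 and Sp8 was not tested.

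For the pallial factors, the cortical neuron list (14 tested, led by Bcl11b and Slc17a7) had its lowest sum in WT 1, where Emx1, Emx2 and Lhx2 were lowest. The sums were 4250 (WT 1), 5068 (WT 4), 5053 (KO 5) and 4922 (KO 6) CPM. Bcl11b, the list's only gene at an unadjusted p under 0.05 by edgeR, went the other way. It was at 284, 268, 236 and 210 CPM in the same order of libraries, with a log2 fold change of -0.31. The radial glia list (14 tested, led by Hopx and Ednrb) had its highest sum in WT 1, with 2724, 2288, 2382 and 2365 CPM. Its genes did not all run the same way. Vim, the largest part of the sum, was at 506, 582, 627 and 431 CPM. Hopx was lowest and Ednrb highest in WT 1. Without Vim the sums were 2218, 1706, 1755 and 1934 CPM. The list of hem, Cajal-Retzius and hippocampal genes (14 tested, led by Calb2 and Prox1) summed to 1551, 2345, 2640 and 1892 CPM, the order of Emx1 and Lhx2. Most of the sum was Nfix, a nuclear factor gene, with 886, 1688, 1940 and 1116 CPM, and without Nfix the sums were 665, 658, 699 and 776 CPM. The fitted difference was above 0 in 11 of 14 cortical neuron genes (median 0.09), 3 of 14 radial glia genes (median -0.06) and 13 of 14 hem and hippocampal genes (median 0.44). Over all genes tested it was above 0 in 8022 of 16371. In these lists 1, 0 and 3 genes had an unadjusted p under 0.05 by edgeR, against 1.94% of all genes. Without WT 4, 0, 0 and 5 passed after adjustment. The diencephalon list (7 tested, led by Calb2 and Lef1) was low, from 97.2 CPM in WT 1 to 149 CPM in WT 4, with 5 genes above 0 and 2 below, 1 at an unadjusted p under 0.05 by edgeR and 2 called without WT 4. The part of these cells in the levels of Emx1, Emx2 and Lhx2 was not tested. Some lists share genes, so their counts are not separate. Calb2, at 15.5, 22.6, 30.4 and 33.6 CPM in WT 1, WT 4, KO 5 and KO 6, is in the caudal eminence, hem and diencephalon lists. Prox1 is in the caudal eminence and hem lists.

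**Figure D4:**
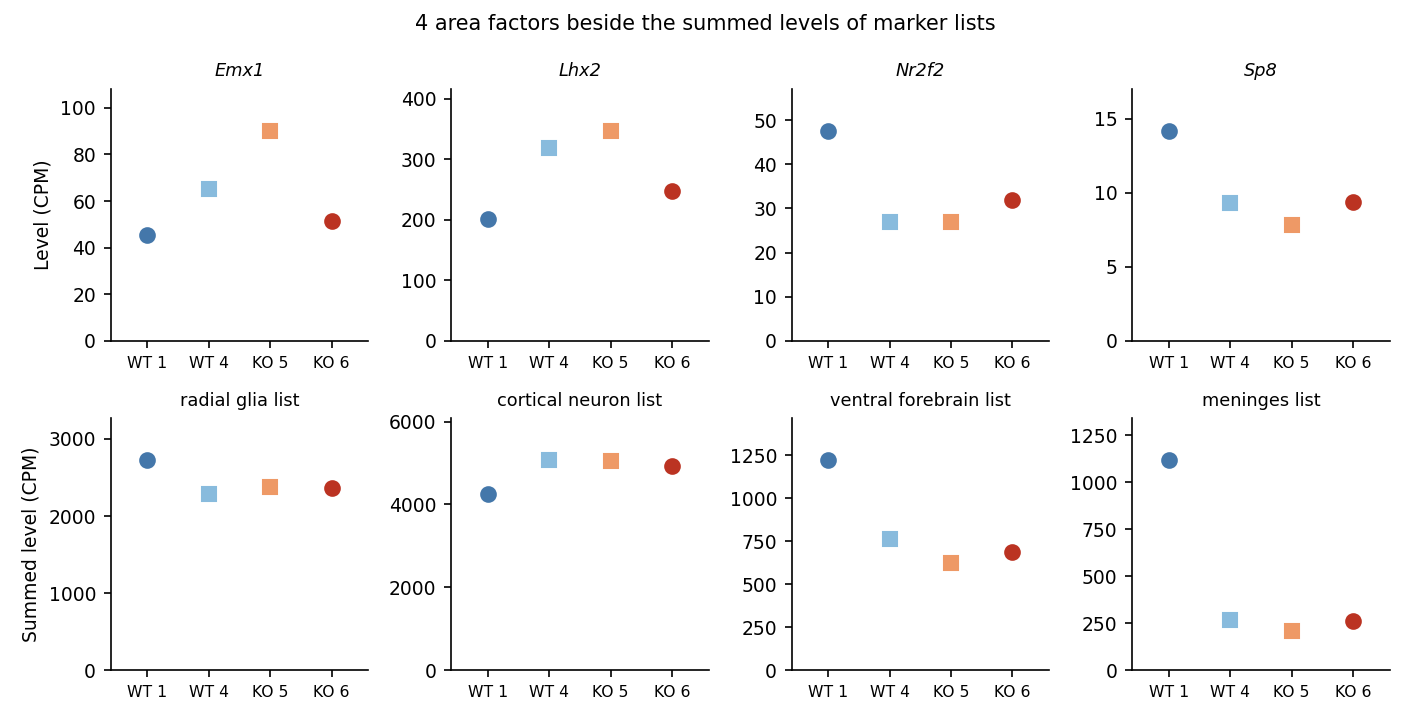
Level in CPM of Emx1, Lhx2, Nr2f2 and Sp8 (top) and summed level in CPM of 4 marker lists (bottom) in the 4 libraries, all axes from 0, with circles for table A and squares for table B. WT 1 is the highest library of Nr2f2, Sp8 and the ventral forebrain (1222 CPM) and meninges (1117 CPM) lists.

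Emx1 had the widest range of the 9 over the libraries, 0.98 on the log2 scale, and the genes nearest to its pattern were sought among the 16370 other genes. Likeness was the Euclidean distance between log2 CPM profiles over the 4 libraries, each centred on its mean. The nearest were CT030164.1 at 0.0926, Nog, the gene of the secreted BMP antagonist noggin, at 0.102, and Scand1, a gene of a SCAN domain protein, at 0.124. Nog had 68, 89, 126 and 72 counts in WT 1, WT 4, KO 5 and KO 6, with a counting error of 8.91% to 12.1%. CT030164.1 had 11 to 24 counts, with a counting error of 20.4% to 30.2%. In all, 20 genes lay within 0.2 of Emx1. Among the area factors themselves the smallest distance was that of Nr2f1 and Lmo3 at 0.145, and Nr2f2 and Sp8 lay 0.206 apart. The profiles were not scaled, so genes of small range lie close whatever the order of their libraries. Nr2f1 and Lmo3 ranged over 0.25 and 0.29 on the log2 scale, with Nr2f1 highest in WT 1 and Lmo3 in KO 6.

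The authors' deposited tables, which compare 1 KO with 1 WT library each, mark 0 of the 9 as significant in either comparison, whereas 4.67% (table A) and 2.31% (table B) of the listed genes carry that mark. By the adjusted p alone, 6 of the 9 in table A and 5 in table B are under 0.05 in the authors' deposited tables, against 21.2% and 12.9% of the listed genes, from reads of 1 library against 1. No gene with a change under 2-fold carries the mark (0 genes in the authors' deposited tables), and the ratios of the 9 ran from 0.650 (Sp8) to 1.43 (Emx2) for KO 6 to WT 1 and from 0.842 (Sp8) to 1.39 (Emx1) for KO 5 to WT 4.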

How the data were processed

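Bulk RNA-seq of E16 cortex was analysed from 2 tables that hold, per the file headers, whole counts per Ensembl gene for 1 KO and 1 WT library each. The authors made the counts. HTSeq 0.6.0, TopHat2 2.0.12, Bowtie2 2.2.3 and the build mm9 appear, without their roles, in the submitters' processing notes. Deposited positions equal those of GENCODE M21 on GRCm38 in 91.6% of matched genes and are printed as deposited. The deposited fold change is a ratio of KO to WT, the log2 column deposited beside it holds the same ratio on a log scale, and the deposited adjusted p-value compares 1 library with 1 library. The 4 deposited columns of normalized values were not used.

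The 20385 genes in both tables were filtered with filterByExpr of edgeR 4.0.16 (R 4.3.3), leaving 16371. The genotypes were compared by the quasi-likelihood test of edgeR with TMM scaling, two-sided, at a Benjamini-Hochberg adjusted p of 0.05. The SE is the log2 fold change over the root of the F statistic. For ratios of single libraries, a prior count of 2 entered log2 CPM. The fit was tested on simulated counts with a set spread between libraries. That test does not show what the fit can detect in these libraries. Alternatives were size factors of DESeq2 1.42.0, total counts, DESeq2, limma-voom (limma 3.58.1), no filter, a mean of at least 10 counts, the table as a block, and leaving out each library. The replicate numbers 1, 4, 5 and 6 pair nothing.

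The genes and lists were chosen with earlier results of these data known. Named are the 9 genes, Cd93, the 2 genes of smallest p of each list where none passed, and the 3 profiles nearest to the gene of widest range. Partners on the opposite strand, and Nfix, Reln and Vim, were added after values were seen. Lengths are unions of GENCODE M21 exons, and start-site windows are from RefSeq (GRCm38.p6). Intervals rest on the spread between the libraries. Counting errors cover reads, which are not independent molecules. Depth was 16318317 to 17586157 counts per library.
Calls of the lists without WT 4, without WT 1 and with the table as a block were counted after values were seen.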

Additional observations from a re-analysis of the deposited data

How the results depend on the processing

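None of the 9 area factors was called under any of the 11 alternatives. Their direction held in every alternative, and within each table, for Emx2, Nr2f1 and Sp8. When a library was left out, the log2 fold change of the other genes ran from -0.69 (no WT 4) to 0.13 (no WT 1) for Nr2f2, from -0.10 (no KO 5) to 0.71 (no KO 6) for Emx1, from -0.099 (no WT 1) to 0.56 (no WT 4) for Lhx2, with -0.074 for Lhx2 in the absence of KO 5. It ran from -0.040 (no KO 6) to 0.14 (no KO 5) for Bhlhe22, from -0.18 (no KO 6) to 0.10 (no KO 5) for Lmo3, and from -0.29 (no WT 4) to 0.055 (no WT 1) for Lmo4. Lmo3 was at 0.12 within table A. Of the other named genes, those whose sign turned were Mrc1 (-3.33 to 0.028), Gm27197 (-0.37 to 0.61), CT030164.1 (-0.018 to 0.87) and Nog (-0.028 to 0.67). The cause was not tested. Such a fit assumes that the lone library of its genotype varies like the other pair.

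The count of called genes over the genome, 2 in the analysis as reported, was 8 with DESeq2 and 29 with the table as a block, and ran from 5 (no KO 5) to 214 (no WT 4). With the table as a block, 0 of the 9 were called. That block sets KO 6 against WT 1 and KO 5 against WT 4. The genotypes share no replicate number, so no pairing by replicate number was possible, and what the tables share beyond their deposit is not given in the labels. Depth limits Sp8 most among the 9, with a counting error of up to 8.54%.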
